A study of Mus musculus with 9 samples.

Results

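The canonical olfactory transduction cascade is the set of proteins that turns the binding of an odorant into an electrical signal in the cilia of olfactory sensory neurons (OSNs). Here 10 genes of the cascade were described: the mature neuron marker Omp, the G protein subunits Gnal, Gnb1 and Gng13, the adenylate cyclase Adcy3, the cyclic nucleotide-gated (CNG) channel subunits Cnga2, Cnga4 and Cngb1, the chloride channel Ano2 and the calcium exchanger Slc24a4. They were chosen by name for their known roles, and all 10 were found among the 24421 gene rows of the count table.

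In OSNs, an odorant receptor (OR) or trace amine-associated receptor (TAAR) that has bound its ligand activates the olfactory G protein, which stimulates adenylate cyclase. The cyclic AMP that is made opens the CNG channel, and the calcium that enters opens a chloride channel that amplifies the current. The cell then recovers as calcium is pumped out and cyclic AMP is broken down.

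RNA-seq was performed on the whole main olfactory epithelium (MOE), which lines the upper nasal cavity and holds the OSNs, from 9 mice of a line that lacks TAAR enhancer 1, a noncoding element in the Taar gene cluster. There were 3 wild type (WT) mice with no deleted copy, 3 heterozygous (het) mice with 1 copy deleted and 3 homozygous (homo) mice with both copies deleted, and the study describes them as littermates. All were labelled C57BL/6 at postnatal day 14, while the reporting summary of the study gives a mixed strain background and older mice for this line, a conflict that was not resolved. The deletion was made by CRISPR-Cas9 in the germ line, so it is present in every cell and not in OSNs alone, and the results describe 1 line. The question put to these libraries here is whether the cascade genes differed in level between genotypes over the whole tissue. The paper states that TAAR OSNs are only a very small part of the MOE. A change within TAAR OSNs alone could therefore go unseen in these libraries.

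The reads counted in genes ranged from 24583906 to 32631951 per library. The 14 olfactory Taar genes, which share a cluster with the enhancer, summed to 44.6 to 44.9 CPM in WT, 36.3 to 38.8 CPM in het and 19.3 to 25.3 CPM in homo libraries. Here CPM is counts per 1000000 reads after scaling of the libraries by TMM. The sum hides differences between genes, since the paper reports that most were lowered in homo and Taar7e was raised. All 10 markers of mature OSNs were detected, as they are in MOE tissue. Reads of vomeronasal receptor genes, which neurons of another nasal organ use, came to 67.9 CPM in het replicate 1, 119.7 CPM in homo replicate 2 and 69.5 CPM in homo replicate 3, against 14.6 to 17.3 CPM in the other 6 libraries. Counts of calls, cascade medians and the single estimates that moved most in homo against WT are therefore given also without those 3 libraries. That leaves 1 homo library.

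None of the 10 cascade genes passed the test in any comparison of genotypes, and every estimated difference was small. By the quasi-likelihood test of edgeR with Benjamini-Hochberg adjustment over 20213 genes, 0 of 10 were called in homo against WT, where 0.0495% of all genes were called. In het against WT 0 of 10 were called against 0.00495% of all genes, in homo against het 0 of 10 against 0.114%, and in the test for any difference among the 3 genotypes 0 of 10 against 0.0643%. DESeq2 also called 0 of 10 in each of these comparisons, where it called 65, 3, 122 and 124 of all 24421 genes, in the same order. The 95% intervals of all 10 genes lay between 0.827-fold and 1.19-fold in homo against WT, between 0.905-fold and 1.18-fold in het against WT, and between 0.793-fold and 1.19-fold in homo against het. In bulk tissue such values cannot tell fewer OSNs from less RNA in each OSN, and they cannot show whether the cascade changed in TAAR OSNs alone.

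Some cascade genes nevertheless had unadjusted p-values under 0.05, and these are counted beside all genes. In homo against WT they were 3 of 10, Omp, Gnal and Gnb1, all with the higher mean in homo, and 9.26% of all genes had such values. No cascade gene had one in het against WT, where 3.25% of all genes did. In homo against het they were Gnb1 and Slc24a4, 2 of 10, against 10.4% of all genes, and for any difference they were Gnb1 and Slc24a4 again, 2 of 10, against 8.45%. Leaving out the 3 libraries with most vomeronasal reads leaves 1 homo library, and unadjusted p-values of that fit are not counted here.

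**Figure D1:**
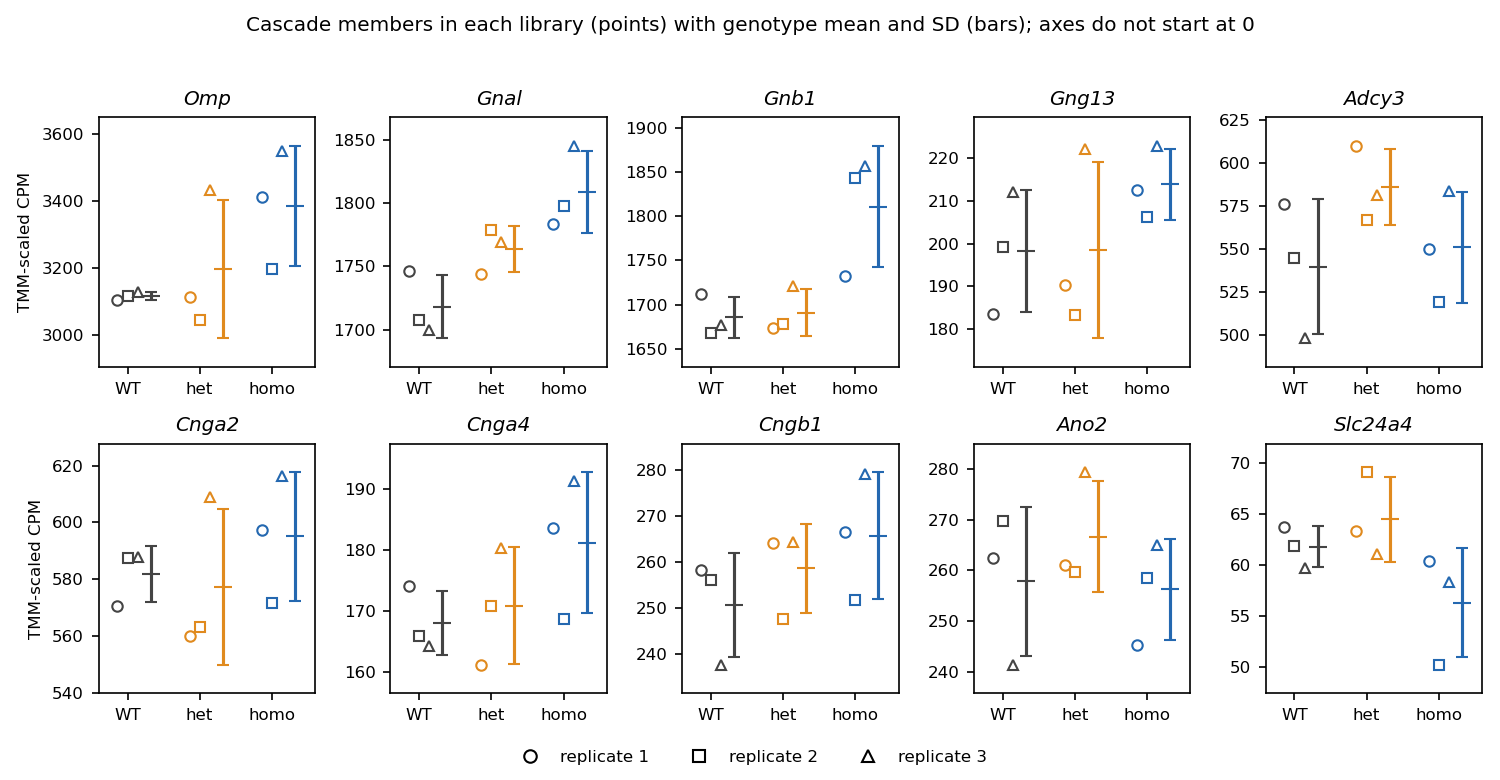
TMM-scaled CPM of each cascade gene (vertical axes, which do not start at 0) in the 9 libraries by genotype (horizontal axes); symbols give the replicate number and bars the genotype mean and SD (n = 3). Homo libraries lie above all WT libraries for Omp, Gnal and Gnb1, and homo replicate 3 is the highest of 9 for 7 of the 10 genes.

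Omp encodes olfactory marker protein, a small cytoplasmic protein that is abundant in mature OSNs and serves as their standard marker. It lies at chr7:98143359-98145502 on the minus strand of GRCm38 and consists of a single annotated transcript. Omp stood at 3104, 3117 and 3127 CPM in WT replicates 1 to 3, at 3114, 3045 and 3432 CPM in het and at 3410.5, 3196 and 3549.5 CPM in homo. The WT libraries were nearly equal, all 3 homo libraries lay above them, and the het libraries spanned the WT values. The log2 fold change in homo against WT was 0.12 ± 0.045 (SE, n = 3 per genotype; adjusted p = 0.451), and 0.037 ± 0.045 in het against WT (adjusted p = 1.0). Omp alone took between 0.304% and 0.356% of the reads counted in genes, and the 10 cascade genes together took between 0.855% and 0.949%.

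Gnal encodes the alpha subunit of the olfactory G protein, which couples ORs and TAARs to the cyclase. It stood at 1747, 1708 and 1700.05 CPM in WT, at 1744, 1779 and 1769 CPM in het and at 1783, 1798 and 1845 CPM in homo. All 3 homo libraries were above all WT and all het libraries, and het overlapped WT. The log2 fold change was 0.07 ± 0.034 in homo against WT (adjusted p = 0.524) and 0.04 ± 0.034 in het against WT (adjusted p = 1.0). Gnal varied least of the 10 genes between libraries, with a coefficient of variation of 2.56%, while the median over 11606 genes of at least 10 CPM was 5.54%.

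Gnb1 encodes a beta subunit that many cell types use and that pairs with the gamma subunit of Gng13 in olfactory neurons. Gnb1, at chr4:155491361-155559269, stood at 1712, 1668 and 1677 CPM in WT, at 1674, 1678 and 1721 CPM in het and at 1732, 1844 and 1857 CPM in homo. The homo libraries were above all WT and het libraries, and homo replicate 1 was much closer to them than homo replicates 2 and 3. The log2 fold change was 0.10 ± 0.037 in homo against WT (adjusted p = 0.430) and 0.099 ± 0.037 in homo against het (adjusted p = 0.370). Homo replicates 2 and 3 are both among the 3 libraries with most vomeronasal reads, and without those 3 libraries the estimates of Gnb1 were 0.039 and 0.026. That fit keeps only homo replicate 1, the lowest homo library for Gnb1. The choice of library and the vomeronasal reads cannot be told apart in it. The part of vomeronasal tissue in these values was not tested.

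Gng13, at chr17:25717171-25719406, encodes the gamma subunit. It stood at 184, 199 and 212 CPM in WT, at 190.3, 183 and 222 CPM in het and at 212, 206 and 223 CPM in homo. The 3 genotypes overlapped, and the log2 fold change in homo against WT was 0.11 ± 0.068 (adjusted p = 0.663). Of the exon bases of Gng13, 51.6% overlap Chtf18 on the other strand, and whether strand was used in counting is not given in the sources used here. Per length Chtf18 stood at 34.5 TPM on average and Gng13 at 1063 TPM, where TPM is the count per exon length, scaled to a sum of 1000000 in each library. The same limit holds for Gnal, with 7.63% of its exon bases overlapping Mppe1 on the other strand. Mppe1 stood at 21.8 TPM on average and Gnal at 637 TPM.

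Adcy3 encodes the cyclase of olfactory cilia that makes cyclic AMP. Adcy3, at chr12:4133103-4213525, stood at 576, 545 and 498 CPM in WT, at 609.9, 567 and 582 CPM in het and at 550.2, 519 and 584 CPM in homo. The spread within WT covered all homo libraries but the highest. Its log2 fold change was 0.12 ± 0.057 in het against WT (adjusted p = 1.0), the largest of the 10 genes in that comparison, and 0.03 ± 0.057 in homo against WT (adjusted p = 0.919). Of its exon bases 22.1% overlap Cenpo on the other strand, which stood at 5.05 TPM on average.

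The CNG channel is built from the pore subunit Cnga2 and the modulatory subunits Cnga4 and Cngb1, which speed its gating and its closure by calcium. Cnga2, at chrX:71991849-72010218, stood at 570.4, 587 and 588 CPM in WT, at 559.9, 563 and 609 CPM in het and at 597, 571 and 616 CPM in homo. Cnga4, at chr7:105404568-105408742, stood at 174, 166 and 164 CPM in WT, at 161, 171 and 180.4 CPM in het and at 184, 169 and 191 CPM in homo. Cngb1, at chr8:95239045-95306585 on the minus strand, stood at 258, 256 and 238 CPM in WT, at 264, 247 and 264 CPM in het and at 266, 252 and 279 CPM in homo. For each subunit the 3 genotypes overlapped, and homo replicate 3 was the highest of 9. In homo against WT the log2 fold changes were 0.03 ± 0.045 for Cnga2, 0.11 ± 0.055 for Cnga4 and 0.08 ± 0.051 for Cngb1 (adjusted p = 0.888, 0.579 and 0.648).

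Ano2 encodes the calcium-activated chloride channel that amplifies the transduction current. Ano2, at chr6:125690419-126040126, stood at 262, 269.8 and 241 CPM in WT, at 261, 259.6 and 279 CPM in het and at 245, 258 and 265 CPM in homo. The 3 genotypes overlapped, and the log2 fold change in homo against WT was -0.01 ± 0.052 (adjusted p = 0.979). Without the 3 libraries with most vomeronasal reads it was -0.073.

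Slc24a4 encodes a potassium-dependent sodium-calcium exchanger that removes calcium from the cilia after a response. Slc24a4, at chr12:102128733-102267091, stood at 63.7, 61.9 and 59.7 CPM in WT, at 63.3, 69.0 and 61.0 CPM in het and at 60.3, 50.2 and 58.3 CPM in homo. All 3 homo libraries lay under all het libraries, and the homo and WT libraries overlapped. It was the 1 cascade gene with a negative estimate beyond its standard error in homo against WT, at -0.13 ± 0.066 (adjusted p = 0.568), and its estimate in homo against het was -0.19 ± 0.066 (adjusted p = 0.318). The lowest library by far, homo replicate 2, is also the one with most vomeronasal reads, and without it the estimates were -0.056 and -0.115. Without the 3 libraries with most vomeronasal reads they were -0.035 and -0.109. Both fits leave out the lowest homo library for Slc24a4, and the choice of library and the vomeronasal reads cannot be told apart in them. The part of vomeronasal tissue in these values was not tested. With 1235 to 2025 reads per library Slc24a4 was also the least abundant of the 10 genes, and it varied most between libraries, with a coefficient of variation of 8.30%.

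**Figure D2:**
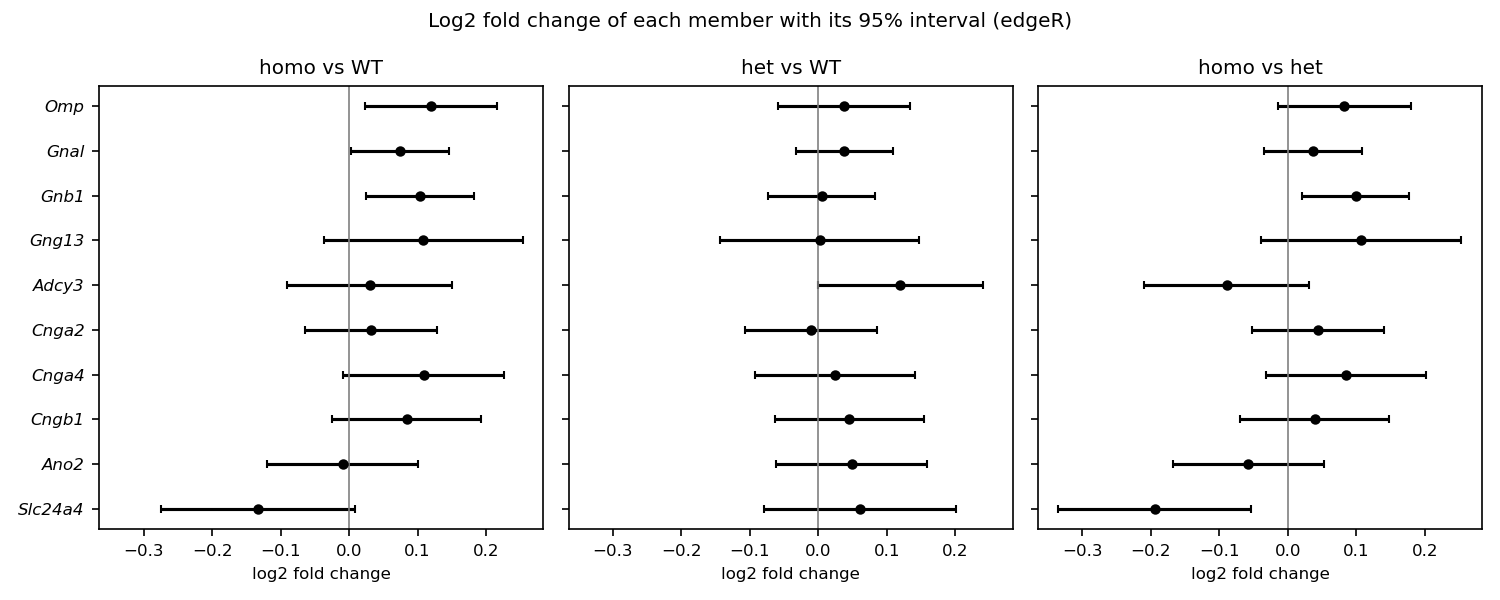
Log2 fold change (horizontal axis) of each cascade gene in the 3 comparisons of genotypes, as points with 95% intervals from edgeR. In homo against WT 7 of 10 intervals include 0, in het against WT all 10 do and in homo against het 8 of 10 do.

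Counted without a test, 3 of 10 cascade genes had all homo libraries apart from all WT libraries, each with homo higher (Omp, Gnal and Gnb1), beside 15.4% of all genes in either direction. Between het and WT 0 of 10 were apart, beside 8.68% of all genes. Between homo and het 3 of 10 were apart, with Gnal and Gnb1 higher and Slc24a4 lower in homo, beside 14.1% of all genes. The comparisons share libraries and are not independent of each other.

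Most estimates of the cascade genes were small and positive. In homo against WT 8 of 10 had a positive log2 fold change and their median was 0.079, while over all genes tested 10063 of 20213 were positive and the median was -0.00057. In het against WT 9 of 10 were positive with a median of 0.037, and in homo against het 7 of 10 with a median of 0.041. The lean in het against WT rested on het replicate 3, without which 5 of 10 were positive and the median was -0.00058. Without the 3 libraries with most vomeronasal reads the medians were 0.046, 0.051 and 0.027, and the estimates of the 7 genes other than Gnb1, Ano2 and Slc24a4 lay between 0.027 and 0.13 in homo against WT. When the libraries were instead scaled to equal levels of the 10 mature OSN markers, 4 of 10 were positive in homo against WT and their median was -0.0052, while the median of all genes moved to -0.084. Those markers had a median of 0.09 in the main fit, so this scaling takes out by construction a lean that is shared with them. No member of the cascade passed the test under that scaling.

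Libraries of the same genotype differed in how many cascade genes stood high. For each gene the log2 CPM of a library was set against its mean over the 9 libraries, and the median of these deviations over the 10 genes was 0.090 in homo replicate 3 and 0.059 in het replicate 3. It was 0.024 in homo replicate 1 and -0.023 in homo replicate 2, and in the 3 WT libraries it lay between -0.049 and -0.0062. Homo replicate 2 therefore stood within the range of the WT libraries. In homo replicate 3 and in het replicate 3, 9 of the 10 genes were above their own mean, against 5, 3 and 2 in WT replicates 1 to 3, 4 and 3 in het replicates 1 and 2, and 7 and 3 in homo replicates 1 and 2. The genes of a library did not all lie on the same side, as in homo replicate 2, where Gnb1 deviated by 0.094 and Slc24a4 by -0.27. Homo replicate 3 and het replicate 3 also had the highest shares of reads counted in genes, at 59.98% and 59.6% against 57.4 to 58.9% in the other libraries, and the lowest shares of reads without a unique alignment, at 16.9% and 17.3% against 17.7 to 19.4%, and the part of this in their values was not tested. WT replicate 3 held the lowest value of 4 genes. Without homo replicate 3, 0 of 10 genes had an unadjusted p under 0.05 in homo against WT and the median log2 fold change was 0.053. The share of all genes under that p was not counted in that fit.

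Markers of other cell types were measured in the same libraries. The 10 mature OSN markers, none of them a cascade gene of this set, summed to 4555 to 4862 CPM in WT, 4823 to 5060 CPM in het and 4848 to 5226 CPM in homo, and their median log2 fold change in homo against WT was 0.09, with 9 of 10 positive and 0 called. The 8 immature neuron markers summed to 2600 to 2719 CPM in WT and 2788 to 2895 CPM in homo, so the groups did not overlap, and their median was 0.10 with 7 of 8 positive and 0 called. Both sets of neuronal markers and the cascade genes therefore had positive medians.

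For each of 6 lists of markers of other cells the median estimate in homo against WT was negative, though single genes went both ways in 5 of the lists and no list was tested as a whole. For the 6 connective tissue markers the median was -0.09 on the log2 scale, 5 of 6 were negative, and they summed to 11468 to 13194 CPM in WT and 11231 to 12266 CPM in homo. The 7 sustentacular cell markers had a median of -0.03, with 5 of 7 negative, and summed to 7433 to 7705 CPM in WT and 7103 to 7592 CPM in homo. The 5 markers of respiratory cilia were all negative, with a median of -0.08 and sums of 415 to 470 CPM in WT and 358 to 410 CPM in homo. The 6 progenitor markers had a median of -0.07, with 4 of 6 negative, and summed to 483 to 536 CPM in WT and 467 to 504 CPM in homo. The 4 horizontal basal cell markers had a median of -0.16, with 3 of 4 negative, and summed to 131 to 140.2 CPM in WT and 120.1 to 132 CPM in homo. The 5 ensheathing glia markers had a median of -0.06, with 3 of 5 negative, but their sums covered 275 to 307 CPM in WT and 269 to 321 CPM in homo, with means of 291 and 293 CPM. The respiratory cilia sums were the only ones of the 6 that did not overlap between homo and WT.

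None of these non-neuronal markers was called in homo against WT, and 1 of them, the sustentacular enzyme Ugt2a1, was called in homo against het, at -0.29 ± 0.049 (adjusted p = 0.0383). The other sustentacular markers did not share this drop: in homo against het 4 of the 7 were positive and the list median was 0.0096. The part that the makeup of the tissue has in the values of the cascade genes was not tested. The 8 vomeronasal neuron markers, of which 7 were detected, summed to 605 to 627 CPM in WT and 650.3 to 685 CPM in homo. In homo against WT 6 of the 7 were positive with a median log2 fold change of 0.22 and 0 called. Vmn2r1 was at 2.23 ± 0.50, Vmn1r51 at 3.37 ± 1.17 and Calr4 at 1.65 ± 0.44. The sum says little of these 3 genes, because Gnao1 and Gnai2, at 391 and 145 CPM in WT replicate 1, made up most of it. The sum only partly followed the vomeronasal receptor reads. Homo replicates 2 and 3, rich in such reads, were highest at 672 and 685 CPM. But homo replicate 1, with 17.3 CPM of them, stood at 650.3 CPM, above het replicate 1 at 629 CPM, which had 67.9 CPM. Of 5 blood markers, 4, all globin genes, are listed at 0 in every library, so blood content could not be judged from them.

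**Figure D3:**
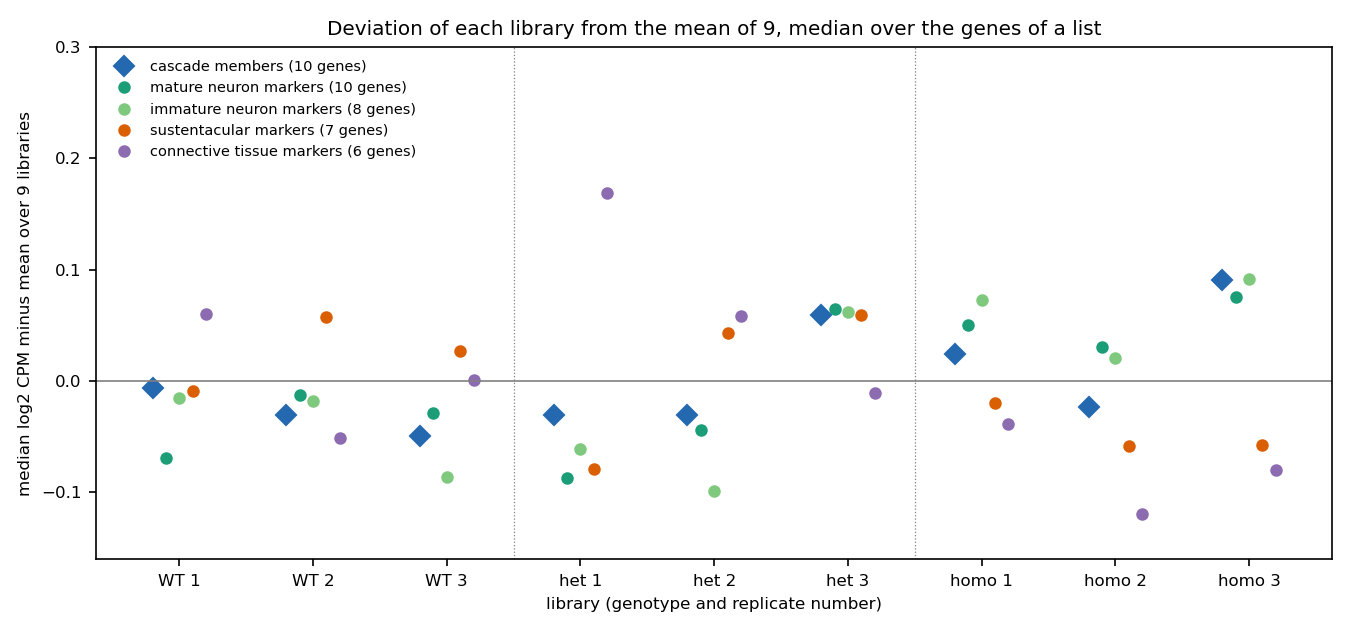
Median deviation of log2 CPM from the mean of the 9 libraries (vertical axis) for each library (horizontal axis), over the cascade genes (diamonds) and over marker lists of 4 cell types (circles). The cascade genes are highest in homo replicate 3 (0.090) and het replicate 3 (0.059), where the mature neuron markers stand at 0.075 and 0.065.

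Genes outside the cascade with the most similar pattern over the 9 libraries were Rasl10b, Mapk8ip3, Trim66, Syt7 and Cyp4f13. Their log2 CPM had a Pearson correlation of 0.965, 0.963, 0.961, 0.957 and 0.956 with the mean standardised log2 CPM of the 10 cascade genes, the highest among 11596 genes with a mean of at least 10 CPM. Spearman correlations were 0.883, 0.950, 0.933, 0.883 and 0.667. These are descriptions over 9 libraries that share the same scaling, in which the highest of many correlations is high by selection. Trim66, the most abundant of the 5, stood at 1017, 1006 and 969 CPM in WT and at 1079, 1020.4 and 1105 CPM in homo.

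Levels of different genes were compared per length, as TPM from the union of annotated exons. In WT, Omp stood at 5872 ± 24.2 TPM (SD, n = 3), Gnb1 at 1596 ± 22.1 TPM and Gng13 at 1036 ± 72.7 TPM. Cnga2 followed at 759 ± 13.1 TPM, Gnal at 621 ± 9.81 TPM and Adcy3 at 349 ± 26.3 TPM. The lowest were Cnga4 at 255 ± 8.22 TPM, Ano2 at 194 ± 11.8 TPM, Cngb1 at 108 ± 5.23 TPM and Slc24a4 at 55.2 ± 1.92 TPM. No neighbours in this order overlapped in any of the 9 libraries, from the 3.72-fold step between Omp and Gnb1 to the 1.197-fold step between Cnga2 and Gnal. Over all libraries Omp ranked 4 of all genes with a length and Slc24a4 ranked 4494.

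The length that is used changed part of this order. With the longest transcript in place of the union of exons, Gnal stood at 936 TPM in WT and moved from 5 to 3 in the order, above Gng13 and Cnga2, while the other 7 genes kept their place. The same order held per coding length, where Gnal stood at 1642 TPM. Gnal has 8 annotated transcripts whose exons together span 11172 bases against 5736 in the longest, and Cngb1 has 10 that span 9355 bases against 6189. Which of them these libraries hold cannot be read from counts per gene.

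Within their gene families, most cascade genes were the leading member. Gnb1 made up 89.0 to 90.0% of the summed TPM of 5 G protein beta genes, and Gng13 68.7 to 71.9% of 12 gamma genes, of which Gng8, a gamma subunit of immature and vomeronasal neurons, was the next at 163 ± 8.15 TPM in WT. Gnal made up 50.1 to 51.6% beside Gnas and 4 inhibitory alpha subunit genes, with Gnas at 167 ± 5.198 TPM in WT. Adcy3 made up 66.9 to 70.9% of 10 adenylate cyclase genes, with Adcy6 next at 84.7 ± 0.671 TPM. Ano2 made up 46.0 to 50.5% of 10 anoctamin genes, with Ano1, a chloride channel of gland and epithelial cells, next at 58.3 ± 3.83 TPM.

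In the CNG family the 3 cascade genes made up nearly all of the reads per length, and the exchanger family was led by another gene. Cnga2, Cnga4 and Cngb1 took 66.0 to 68.4%, 22.2 to 23.8% and 9.15 to 10.4% of the TPM of 6 CNG genes, while the photoreceptor subunit genes Cnga1, Cnga3 and Cngb3 stood at 0.030, 0.718 and 1.54 TPM in WT. Slc24a4 made up 24.8 to 29.7% of 5 Slc24 genes and was below Slc24a2, an exchanger known from cones and brain, which stood at 108 ± 4.76 TPM in WT and made up 54.7 to 59.9%. In all 9 libraries the other 6 families were led by the cascade gene, and in whole tissue the genes of a family need not come from the same cells.

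**Figure D4:**
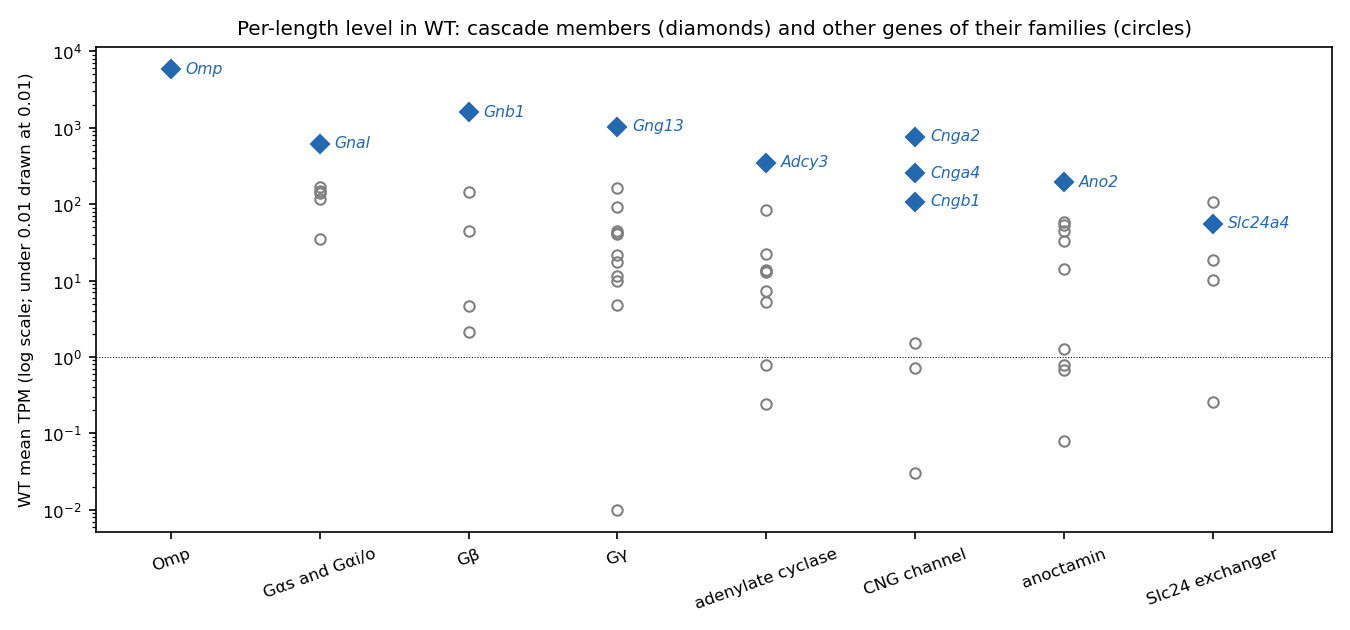
Mean TPM in the 3 WT libraries (vertical log axis) of the cascade genes (diamonds) and of other genes of the same families (circles), by family (horizontal axis). Each cascade gene but Slc24a4 (55.2 TPM, below Slc24a2 at 108 TPM) stands above the other genes of its family, and the dotted line marks 1 TPM.

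The balance of subunits that assemble with each other was compared within each library, as the ratio of reads per kilobase of exon, which does not depend on scaling between libraries. The ratio of Cnga4 to Cnga2 was 0.336 ± 0.0163 (SD, n = 3) in WT, 0.344 ± 0.00907 in het and 0.354 ± 0.00931 in homo. That of Cngb1 to Cnga2 was 0.143 ± 0.00809 in WT, 0.148 ± 0.00667 in het and 0.148 ± 0.00202 in homo. For Gng13 to Gnal it was 1.67 ± 0.143 in WT, 1.63 ± 0.167 in het and 1.71 ± 0.0453 in homo. All these ranges overlapped between genotypes.

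The ratio of Gnb1 to Gnal was 2.57, 2.56 and 2.58 in WT, 2.51, 2.47 and 2.55 in het and 2.54, 2.68 and 2.63 in homo. The WT libraries were all above the het libraries, which gave the smallest p that 3 against 3 libraries allow (two-sided exact permutation test, p = 0.1, adjusted over the 12 tests 0.667). None of the 12 tests had an adjusted p under 0.667, and with 3 libraries per genotype none could have passed 0.05. The mean ratios themselves rest on the lengths used: Gng13 to Gnal averaged 1.67 over the 9 libraries per union of exons, 0.921 per longest transcript and 0.772 per coding length.

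**Figure D5:**
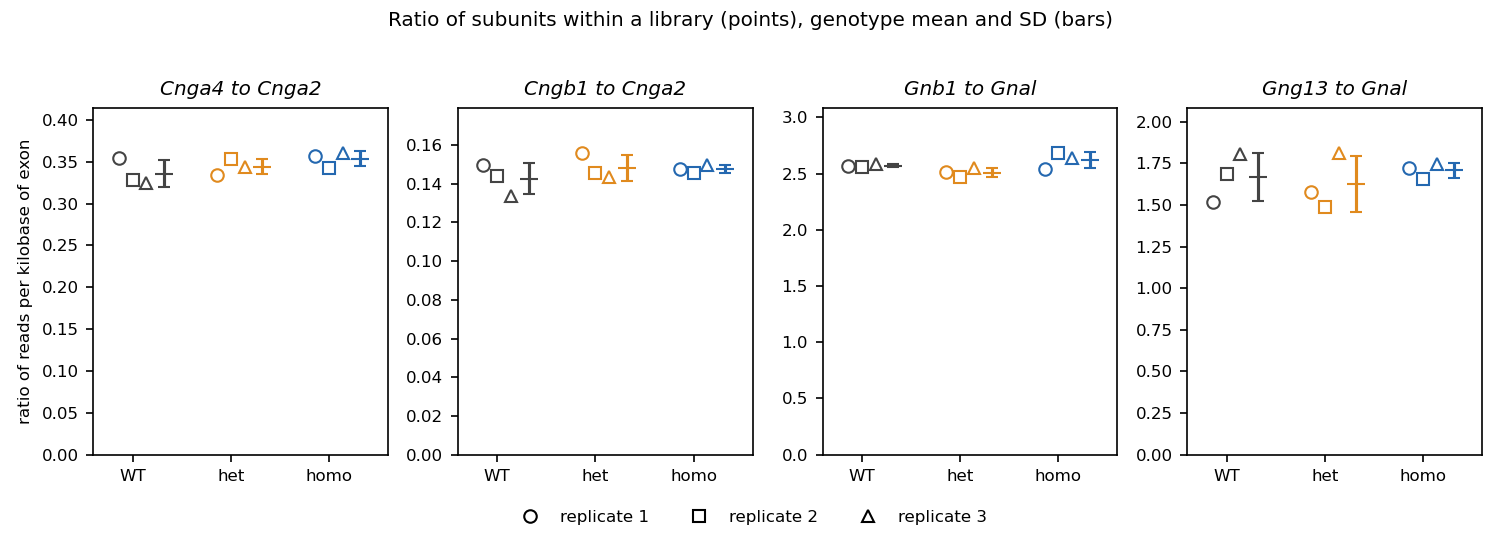
Ratio of reads per kilobase of exon between subunits (vertical axes from 0) in each library by genotype (horizontal axes), with genotype mean and SD (bars, n = 3). The WT and het libraries are apart for Gnb1 to Gnal (2.56 to 2.58 against 2.47 to 2.55) and overlap for the other ratios.

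Other genes of the pathway showed no call either. A list of 22 regulators held chaperones, kinases, phosphodiesterases, pumps and cilia proteins that act on the cascade, and 4 of them also served as mature OSN markers. In homo against WT 15 of 22 were positive with a median log2 fold change of 0.075, in het against WT 15 of 22 with 0.03 and in homo against het 13 of 22 with 0.03, and 0 of 22 were called in each. In these comparisons 5, 0 and 4 of 22 had an unadjusted p under 0.05, beside 9.26%, 3.25% and 10.4% of all genes. DESeq2 called 0 of 22 in each, beside 65, 3 and 122 of all 24421 genes.

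The regulators with the smallest unadjusted p in homo against WT were Prkaca, a catalytic subunit of protein kinase A, Atp2b4, a plasma membrane calcium pump, and Gfy, a Golgi protein needed for the transport of Adcy3 to cilia. Prkaca stood at 139.1, 139.9 and 139.4 CPM in WT and at 151, 149 and 155 CPM in homo, at 0.12 ± 0.042 on the log2 scale (adjusted p = 0.423). Its homo libraries lay above all WT libraries, and 15.4% of all genes had these groups apart in either direction. Groups that lie apart are likely for any gene named by its small p, here and below. Gfy stood at 1142, 1004 and 925 CPM in WT and at 1299, 1066 and 1159 CPM in homo, at 0.20 ± 0.076 (adjusted p = 0.451), and its groups overlapped.

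Atp2b4 stood at 103, 102 and 91.9 CPM in WT, at 102, 109 and 98.3 CPM in het and at 94.8, 78.4 and 89.4 CPM in homo. Its estimate was -0.18 ± 0.067 in homo against WT (adjusted p = 0.447) and -0.24 ± 0.067 in homo against het (adjusted p = 0.238), the smallest p of the list there. All homo libraries were under all het libraries. In homo against het the next were Ppp3ca, a subunit of the phosphatase calcineurin, at 0.14 ± 0.051 (adjusted p = 0.370), and the calcium pump Atp2b1 at -0.13 ± 0.050 (adjusted p = 0.406).

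Of 45 other genes of the families of the cascade, 44 had enough reads for the test and 0 were called in any comparison, with 7, 1 and 7 at an unadjusted p under 0.05 in homo against WT, het against WT and homo against het, beside the same shares of all genes. Their median log2 fold changes were -0.0082, -0.01 and -0.0084, close to the median of all genes. The smallest p belonged to Gnai1, an inhibitory alpha subunit, which stood at 26.1, 25.5 and 29.0 CPM in WT, at 28.8, 33.3 and 29.6 CPM in het and at 24.3, 24.4 and 20.9 CPM in homo. Its homo libraries were under all others, at -0.40 ± 0.082 in homo against het (adjusted p = 0.101). DESeq2 called it there (adjusted p = 0.00507), as it did 122 of all 24421 genes.

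Ano1 followed, at 85.4, 87.8 and 97.2 CPM in WT, 94.6, 97.02 and 81.4 CPM in het and 77.9, 71.9 and 80.0 CPM in homo. Its estimates were -0.23 ± 0.068 in homo against WT (adjusted p = 0.343) and -0.25 ± 0.068 in homo against het (adjusted p = 0.221). Adcy9, a cyclase found in many tissues, was at -0.29 ± 0.092 in homo against het (adjusted p = 0.299), and Cnga3, with 18 to 36 reads per library, at 0.76 ± 0.28 in homo against WT (adjusted p = 0.441).

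Gnao1, the alpha subunit of a class of vomeronasal neurons that the MOE also expresses, stood at 391, 374 and 378 CPM in WT and at 418, 411 and 432 CPM in homo. Its estimate was 0.14 ± 0.042 in homo against WT (adjusted p = 0.345). DESeq2 called it there (adjusted p = 0.0415), as it did 65 of all 24421 genes. The homo libraries lay above all WT libraries.

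Promoters of the cascade genes were searched for letters that olfactory transcription factors are known to bind. EBF factors bind the core CCCNNGGG, which reads the same on both strands, and LHX homeodomain factors bind TAATTA, which also does. RefSeq promoters of GRCm38.p6, each with 250 bases before and 50 after a start, were used for 8 of the 10 genes, with 12 promoters in all. Omp had no entry among these promoters. Gnal was left out of the search by choice, so the counts for the cascade genes do not cover it. The EBF core was present in 6 of these 8 genes and in 6 of 12 promoters, and in 13.7% of all 32851 promoters and 15.4% of all 27025 genes. With T before and A after the core it was in 0 of 12 and in 0.904% of all promoters, and TAATTA was in 0 of 12 and in 5.29% of all. A match of letters is a description of the sequence and not a bound site.

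The 6 genes with the core are shown here by 30 bases around it, 5′ to 3′ on the strand of the gene, with the core in capitals, so that the bases between and beside it can be compared. The first letter of the core lies 66 bases before the start in Cnga2 (window chrX:71991772-71991801), 95 in Gng13 (chr17:25717066-25717095), 109 in Slc24a4 (chr12:102128607-102128636), 129 in Cngb1 (chr8:95306696-95306725, minus strand) and 67 before the third listed start of Ano2 (chr6:125711110-125711139). In Cnga4 it lies 24 bases after the start (chr7:105404581-105404610). The Gng13 match overlaps a further match shifted by 1 base.
Cnga2: caagggagagtCCCTTGGGgagcttgggag
Gng13: tgcatgtcccaCCCCAGGGgagacctgcca
Slc24a4: ctgggcgagcgCCCTAGGGgaggtgtacac
Cngb1: acactgctggaCCCGTGGGggttgctgctt
Ano2: caagggaacacCCCGAGGGatggaggcagg
Cnga4: cgcagctggagCCCCAGGGcagcttcttcc
The log2 fold changes of these 6 genes in homo against WT ran from -0.13 for Slc24a4 to 0.11 for Cnga4, and those of the searched genes without the core were 0.10 for Gnb1 and 0.03 for Adcy3.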

How the data were processed

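Whole MOE libraries of 9 mice, 3 per genotype, were polyA-selected, and genotype was taken from sample labels. The authors deposited raw counts per gene, made from reads mapped to mm10 with HISAT2 2.1.0. The methods name featureCounts as counter, while the submitters' processing notes name HTSeq 0.6.1p1 and Trimmomatic 0.36. Gene annotation and strand setting are not given in the sources used here. A second table, with a normalized signal that the authors made by dividing counts by 1 DESeq2 1.20.0 size factor per library (0.903 to 1.204), served only as a check. Summary rows entered neither library sizes nor tests; reads in no gene were 21.6 to 22.4% of all reads the table accounts for.

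Genes with at least 10 counts over the 9 libraries (20213) were scaled by TMM and tested with edgeR 4.0.16 (glmQLFit and glmQLFTest; R 4.3.3) in 1 model of genotype over all 9 libraries. Benjamini-Hochberg adjustment ran over all genes tested, at a threshold of 0.05. Intervals are 95% intervals of the fit. TPM used exon lengths of GENCODE M21, with 23999 rows matched by name. Ratios were compared by two-sided exact permutation tests in Python 3.11.15 with scipy 1.17.1. The pipeline was tested on simulated counts.

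Cascade genes, gene lists and alternatives were chosen with earlier results of these data known. Named beside the 10 cascade genes are, per list and comparison, up to 3 genes of smallest unadjusted p under 0.05, the most abundant gene of each list, and the 5 genes most alike in pattern; 1 gene that this rule names is not reported here. Alternatives were DESeq2 size factors, DESeq2 1.42.0, other filters on low counts, only the 6 libraries compared, a replicate block, leaving out each library, leaving out the 3 libraries with most vomeronasal reads, scaling to mature OSN markers, and other gene lengths.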

Additional observations from a re-analysis of the deposited data

How the results depend on the processing

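The count of cascade genes called was 0 in every comparison and every alternative that was run. Single log2 fold changes, none of them called, changed sign as follows. Scaling to mature OSN markers gave, in homo against WT, -0.0102 for Gnal, -0.055 for Adcy3, -0.052 for Cnga2 and -0.00014 for Cngb1, in het against WT -0.021 for Gnb1, -0.027 for Gng13 and -0.0038 for Cnga4, and in homo against het -0.023 for Gnal, -0.014 for Cnga2 and -0.0203 for Cngb1. In het against WT, Gng13 was at -0.0015 with filterByExpr. Without the 3 libraries with most vomeronasal reads, which leaves 1 homo library that is assumed to vary like the others, Cnga2 was at 0.011 in het against WT, and the log2 difference in ratio was 0.0304 for Cngb1 to Cnga2 in homo against het and -0.014 for Gnb1 to Gnal in homo against WT.

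Leaving out each library in turn gave ranges that cross 0 for Adcy3 (-0.021 to 0.081) and Ano2 (-0.051 to 0.025) in homo against WT, and for Omp (-0.0202 to 0.071), Gnb1 (-0.012 to 0.014), Gng13 (-0.0897 to 0.056), Cnga2 (-0.055 to 0.0101) and Cnga4 (-0.0204 to 0.064) in het against WT. It did so for the log2 ratio difference of Cngb1 to Cnga2 in homo against het (-0.028 to 0.031) and of Gng13 to Gnal in homo against WT (-0.02995 to 0.094) and het against WT (-0.12 to 0.022). The count of cascade genes at an unadjusted p under 0.05 ranged from 0 (without homo replicate 3) to 5 (without homo replicate 2) in homo against WT, where it was 1 without WT replicate 2. It ranged from 0 to 1 in het against WT, from 1 (without het replicate 1 or 2) to 5 (without het replicate 3) in homo against het, and from 1 (without homo replicate 3) to 4 (without het replicate 3) for any difference. The median log2 fold change ran from 0.053 to 0.087 in homo against WT, from -0.00058 to 0.051 in het against WT and from 0.020 to 0.079 in homo against het. Shares of all genes at an unadjusted p under 0.05 were not counted for these fits.

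The replicate numbers were not taken as pairs in the main fit. Deviations of same-numbered libraries correlated at -0.196 to 0.0616 between WT and the other genotypes. Between homo and het the correlations were -0.00689, 0.305 and 0.364 for replicates 1 to 3, and what these libraries share was not tested. In homo against het 41 of all 20213 genes were called with a replicate block and 23 in the main fit. With the replicate block 0 cascade genes were called and Gng13 stood at -0.00078 in het against WT. The counts at an unadjusted p under 0.05 were 4, 1 and 4, and the shares of all genes were not counted in that fit.

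Family genes called went from 0 to 1 with DESeq2 in homo against WT (Gnao1) and in homo against het (Gnai1), to 2 for any difference, to 1 in homo against het without a filter on low counts (Gnai1), and to between 0 and 2 when each library was left out in turn (2, Ano1 and Gnai1, in homo against het without het replicate 3). Over all genes DESeq2 called 65, 122 and 124 of 24421 in these comparisons. In homo against het 50 of 22058 genes were called without the filter and 190 of 20103 without het replicate 3.

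WT levels per longest transcript were 4544 TPM for Omp, 936.5 for Gnal, 1677 for Gnb1, 862 for Gng13, 300.1 for Adcy3, 594 for Cnga2, 212 for Cnga4, 127 for Cngb1, 205 for Ano2 and 43.2 for Slc24a4. Per coding length they were 8183, 1642, 2122, 1267, 202, 375, 125, 81.0, 110.2 and 42.5 TPM in the same order of genes. The cause of these changes lies in the lengths, since the reads are the same; for the other changes the cause was not tested.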
